A study of Homo sapiens with 3 samples.

Results

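The major histocompatibility region of chromosome 6 was taken as positions 28.477 to 33.449 Mb of chromosome 6 (GRCh37), and its methylation was described in Hep3B cells with and without SOX4. Its members were the CpGs of this interval that had at least 10 reads, strands summed, in each of 3 libraries. They numbered 16361 of the 18733 CpGs listed there (87.3%), out of 2238764 CpGs compared in the whole series. The interval was divided into 4 blocks. A telomeric flank (28.477 to 29.570 Mb) held 2031 members, the class I block (29.570 to 31.480 Mb) 6693, the class III block (31.480 to 32.190 Mb) 4156 and the class II block (32.190 to 33.449 Mb) 3481.

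Hep3B is an established hepatocellular carcinoma line. One library came from parental Hep3B cells, and each of 2 lines without SOX4 gave 1 library. The lines are named line 1 and line 2 by their label numbers. The knockout lines had been made earlier with CRISPR/Cas9 and were grown in puromycin, and whether each is a single clone is not given in the sources used here. The SOX family protein SOX4 binds DNA and controls transcription, and the study asked how it acts on gene expression through DNA methylation. Genomic DNA was enriched with a capture probe set for CpGs, treated with bisulfite and sequenced. Bisulfite leaves methylated cytosine as C and lets unmethylated cytosine be read as T. The methylation level of a CpG is the percentage of its reads that kept C. Differences between levels are given in percentage points. The edit at SOX4 and the expression of liver markers were not analysed here. With 1 parental library, no value carries a biological error for parental cells. The gap between the knockout lines is the only yardstick of spread, and it also contains whatever set these lines apart from each other.

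The interval is known for its density of immune genes. Class I genes such as HLA-B and HLA-C encode molecules that show peptides from inside the cell to cytotoxic T cells, and class II genes encode molecules that show ingested peptides to helper T cells, mainly on specialised antigen presenting cells. Between them, the class III block carries complement genes, the tumour necrosis factor family and heat shock genes, together with many genes that every cell uses. The peptide transporter TAP1 and the immunoproteasome subunits PSMB8 and PSMB9 lie within the class II block and serve the class I pathway. Methylation of CpG-rich promoters generally goes with silence, while methylation of gene bodies is common in active genes.

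Promoter sequences are shown first for 5 genes on which the results below turn. HLA-B and HLA-F are class I genes, HLA-G is a class I gene normally restricted mostly to the placenta, TAP1 is the transporter and TNF is the cytokine. Each is the RefSeq sequence (GRCh38.p14) from 250 bases before to 50 bases after the start, 5′ to 3′ along the gene, with every CpG in capitals. The GRCh37 positions come from matching the spacing of these CpGs to the positions in the deposited files, not from converting coordinates. They are chr6:31324907-31325206 on the minus strand for HLA-B, chr6:29690961-29691260 on the plus strand for HLA-F, chr6:29795352-29795651 on the plus strand for HLA-G, chr6:32821432-32821731 on the minus strand for TAP1 and chr6:31543092-31543391 on the plus strand for TNF. The reference sequence is shown, and alleles of Hep3B may differ from it.
HLA-B: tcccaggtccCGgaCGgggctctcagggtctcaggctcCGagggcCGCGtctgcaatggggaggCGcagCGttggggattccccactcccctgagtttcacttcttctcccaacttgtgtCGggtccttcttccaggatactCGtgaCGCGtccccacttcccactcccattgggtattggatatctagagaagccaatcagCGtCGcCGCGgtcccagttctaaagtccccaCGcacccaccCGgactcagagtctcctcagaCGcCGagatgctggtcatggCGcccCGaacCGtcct
HLA-F: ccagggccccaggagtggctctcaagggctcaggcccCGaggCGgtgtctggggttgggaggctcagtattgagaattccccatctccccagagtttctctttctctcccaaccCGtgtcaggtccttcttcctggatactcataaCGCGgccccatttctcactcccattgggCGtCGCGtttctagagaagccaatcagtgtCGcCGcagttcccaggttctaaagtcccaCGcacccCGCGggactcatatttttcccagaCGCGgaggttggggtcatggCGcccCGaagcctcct
HLA-G: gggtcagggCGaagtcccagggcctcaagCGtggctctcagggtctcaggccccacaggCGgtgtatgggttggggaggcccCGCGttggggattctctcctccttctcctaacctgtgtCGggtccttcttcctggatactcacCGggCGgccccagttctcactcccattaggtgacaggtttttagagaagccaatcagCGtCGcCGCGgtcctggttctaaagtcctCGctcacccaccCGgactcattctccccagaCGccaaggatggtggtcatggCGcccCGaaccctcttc
TAP1: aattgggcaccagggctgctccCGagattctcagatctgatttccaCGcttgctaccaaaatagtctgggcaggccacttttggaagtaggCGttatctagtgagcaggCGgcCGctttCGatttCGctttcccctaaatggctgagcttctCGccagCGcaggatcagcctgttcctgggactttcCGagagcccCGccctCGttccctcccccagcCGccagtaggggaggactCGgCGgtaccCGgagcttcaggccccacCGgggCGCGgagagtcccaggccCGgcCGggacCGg
TNF: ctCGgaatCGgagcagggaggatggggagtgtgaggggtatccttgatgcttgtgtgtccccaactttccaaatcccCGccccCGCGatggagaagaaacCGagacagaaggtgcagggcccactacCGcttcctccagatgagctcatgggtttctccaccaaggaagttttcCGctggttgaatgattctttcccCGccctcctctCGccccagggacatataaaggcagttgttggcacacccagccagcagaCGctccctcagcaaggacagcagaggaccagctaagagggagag
The HLA-B and TAP1 windows hold 22 CpGs each, those of HLA-F and HLA-G 17 each and that of TNF 11. The HLA-G window is identical to that of HLA-B at 233 of 317 aligned positions (73.5%), and the HLA-F window at 243 of 305 (79.7%).

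Short motifs were searched on both strands of these windows and of the HLA-C window. The repeat GAAANNGAA, a form of the interferon response element, was found in 8.11% of all 35116 RefSeq promoters. It occurred in the TAP1 window at 2 overlapping places, as TTCGATTTC and TTCGCTTTC on the printed strand, and in the HLA-F window as TTCTCTTTC. The kappa B sequence GGGGATTCC, held by 0.285% of all promoters, occurred in the HLA-B window. The core TGACG of the cyclic AMP response element, held by 24.6% of all promoters, occurred in the HLA-B and HLA-C windows. The CpG inside TGACG was methylated in 1.37% of parental reads, 12.5% of line 1 reads and 6.96% of line 2 reads at HLA-B, and neither line passed the Fisher exact test there (adjusted p = 0.114 in line 1). The CpGs inside the 2 TAP1 matches stood at no more than 3.77% in any library.

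Coverage of the interval was deep but uneven. The median depth over its members was 58 reads in parental cells, 52 in line 1 and 73 in line 2, against 31, 28 and 39 reads over all CpGs compared. Reads on the interval made up 1.14%, 1.11% and 1.14% of the libraries, so the read share of line 1 was 0.973 times the parental share and that of line 2 was 0.999 times. In the 4 blocks these ratios lay between 0.966 and 1.01. The class III block was the most densely covered, with 5854 members per Mb, against 3504 in class I, 2765 in class II and 1858 in the telomeric flank.

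Stretches of 10 kb or more without a single member numbered 106 and took up 39.1% of the interval. They covered 54.6% of the telomeric flank, 52.1% of class II, 31.5% of class I and 12.5% of class III. In 61 of them no library listed any CpG. The longest stretch ran over 78962 bases (chr6:29195332-29274293) and had no CpG listed. The next, of 75518 bases (chr6:32443821-32519338), had 5 CpGs listed, and lay between the placed starts of BTNL2, a butyrophilin-like gene, and HLA-DQA1-AS1. A stretch of 24633 bases (chr6:31973347-31997979), just before the placed start of the steroid hydroxylase gene CYP21A2, had 12 CpGs listed. Of 303 bins of 10 kb with at least 10 CpGs listed, 14 had fewer than 50% of them pass the depth minimum. These stretches are missing from what follows, though a gene that reaches into one may still be named. Listed genes were left out where no start could be placed or too few members lay in its window.

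**Figure D1:**
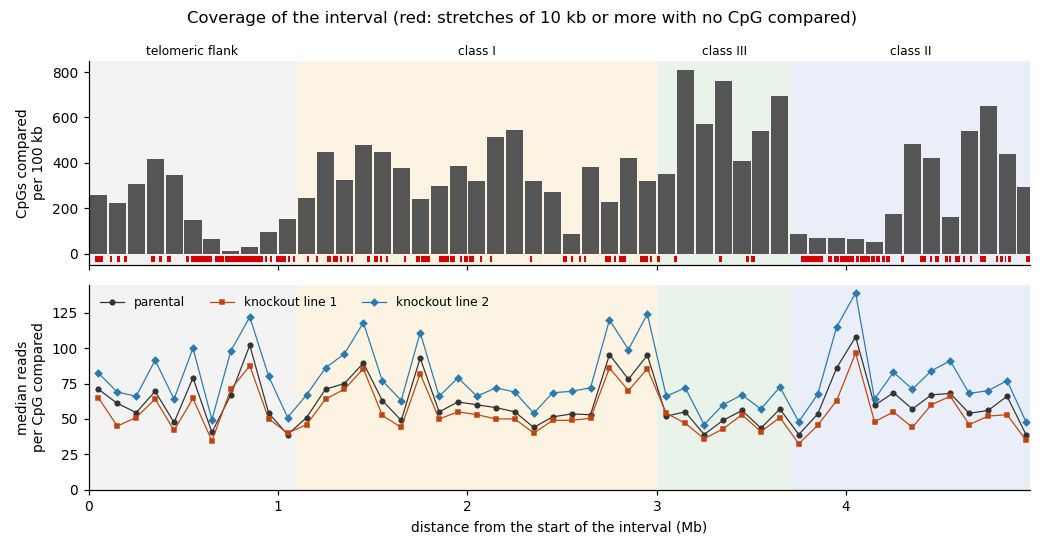
Coverage along the interval by distance from its start in Mb, with the 4 blocks shaded. The upper panel gives the CpGs compared per 100 kb as bars starting at 0, with red marks for the 106 stretches of 10 kb or more without one, and the lower panel the median reads per CpG compared in each library. The last bar covers less than a full bin. Red marks crowd the telomeric flank and the first part of class II, and line 2 is the deepest library in most bins.

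The mean methylation level of the interval was lower in both knockout lines than in parental cells. It was 37.0% in parental cells, 34.0% in line 1 and 35.4% in line 2, with a knockout mean of 34.7% ± 1.04 (SD, n = 2). The knockout mean fell by 2.26 points, while the lines differed from each other by -1.47 points, close to the -1.52 points by which line 2 differed from parental. All 3 libraries were lower here than over all CpGs (42.7%, 38.7% and 40.6%) and over the rest of chromosome 6 (44.8%, 39.8% and 42.3%), where the knockout mean fell by 3.10 and by 3.77 points. An exact permutation test of 1 library against 2 cannot reach 0.05, and none was run.

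The 4 blocks stood at different levels, with the same order of libraries in each. Class III was the most methylated, at 47.2% in parental cells, 44.1% in line 1 and 45.8% in line 2. Class II was the least, at 29.9%, 28.3% and 29.0%. Class I stood at 34.3%, 31.6% and 32.9%, and the telomeric flank at 37.1%, 30.8% and 33.6%. The parental library was the highest and line 1 the lowest in each of the 4 blocks. The fall of the knockout mean ranged from 4.83 points in the telomeric flank to 1.19 points in class II. The lines differed from each other by -2.81 points in the telomeric flank, -1.28 in class I, -1.73 in class III and -0.761 in class II.

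Highly methylated CpGs were fewer in both lines. CpGs above 80% made up 27.9% of the members in parental cells, 25.2% in line 1 and 25.9% in line 2, and CpGs under 20% made up 53.1%, 56.4% and 54.1%. In the telomeric flank, the share above 80% was 26.7% in parental cells against 19.4% and 20.9% in the lines. In class II it stayed between 19.7% and 20.5%.

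Windows of 1 kb with at least 5 members numbered 840, and their level was the mean over their CpGs. The median window stood at 45.3% in parental cells, 34.9% in line 1 and 40.0% in line 2. In class III the median window was at 70.1%, 58.0% and 65.5%, in class I at 46.9%, 37.6% and 44.3%, in the telomeric flank at 32.8%, 23.9% and 28.0%, and in class II at 26.5%, 19.6% and 22.3%. The quartiles were far apart in every block, from 15.9% to 93.7% in parental class III and from 6.77% to 73.5% in parental class II, since many windows were either under 20% or above 80%.

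**Figure D2:**
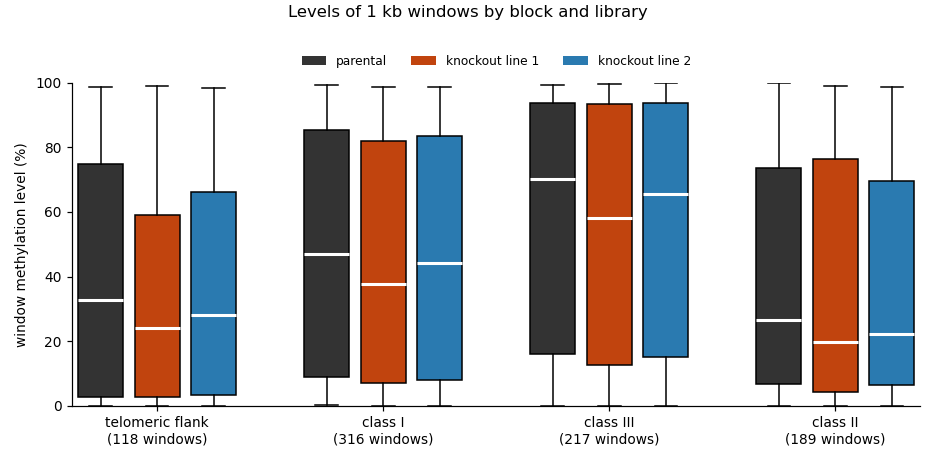
Methylation level of 1 kb windows in percent, by block and library. Boxes run from the lower to the upper quartile, white bars are medians and whiskers reach the lowest and highest window. In each block the parental median is the highest and the line 1 median the lowest, and the boxes of the 3 libraries overlap over most of their length.

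Windows of intermediate parental level carried the largest median differences. Of the 840 windows, 310 were under 20%, 271 between 20% and 80% and 259 above 80% in parental cells. The intermediate windows differed from parental by a median of -8.38 points in line 1 and -3.88 points in line 2, against -0.141 and -0.0687 points in the low windows and -0.977 and -0.814 points in the high windows. Over all windows of the series the intermediate ones differed by a median of -8.69 and -4.50 points. Grouping windows by their parental level itself draws high windows down and low windows up, since the same parental value enters the difference.

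High windows were not alike in the 4 blocks. In the telomeric flank the 26 windows above 80% differed by a median of -9.37 points in line 1 and -5.22 points in line 2. In class II the 40 such windows differed by 0.447 and 0.0341 points. In class I the medians were -1.53 and -0.945 points over 97 windows, and in class III -0.455 and -0.371 points over 96 windows. These differences between blocks were not tested.

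Few windows differed by 25 points or more, and nearly all of them did so in line 1. In line 1, 3 windows rose by that much (0.357% of 840, against 0.416% of all windows) and 15 fell (1.79%, against 4.15%). In line 2, 1 window rose (0.119%, against 0.0901%) and 0 fell (against 0.628%). In both lines together 1 window rose (0.119%, against 0.0680%) and 0 fell (against 0.551%). Between the lines, 0 windows were higher in line 1 (against 0.116%) and 1 was lower (0.119%, against 0.786%). Windows carry no p-value, because neighbouring CpGs share reads. Shares of rises were close to the background at these small counts, and shares of falls were below it.

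Of the 15 windows that fell in line 1, 8 were among the 118 windows of the telomeric flank, 4 among the 217 of class III, 2 among the 189 of class II and 1 among the 316 of class I. In all 18 windows that moved by 25 points or more in line 1, line 2 lay between parental cells and line 1, and its change was a median of 0.539 times that of line 1. Over all 840 windows, line 2 lay between the other two in 474 (56.4%). The 18 windows were chosen for a line 1 value far from parental, which by itself favours a line 2 value in between. The 2 shares are therefore not comparable, and agreement between the lines was not tested.

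**Figure D3:**
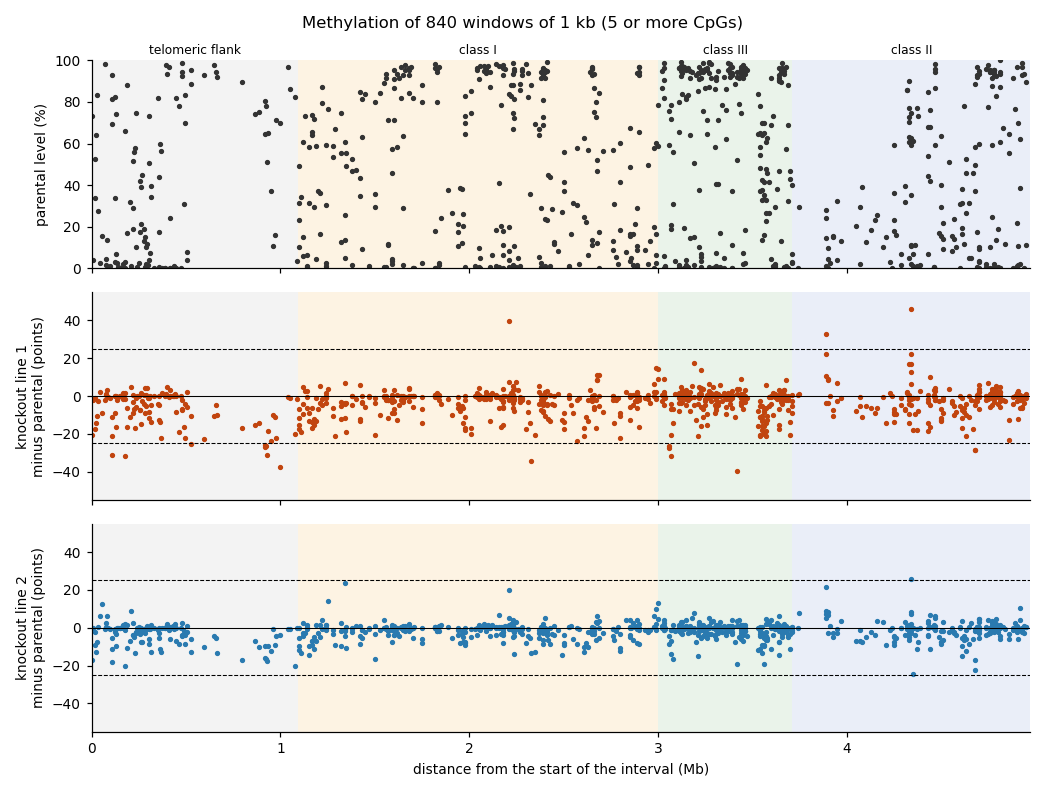
The 840 windows by distance from the start of the interval in Mb, with blocks shaded. The upper panel gives the parental level in percent, the middle and lower panels the difference of line 1 and of line 2 from parental in points, with dashed lines at 25 points. Line 1 has 18 points beyond the dashed lines and line 2 has 1, and most remaining points lie at or below 0.

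Single CpGs were tested between each pair of libraries with a 2-sided Fisher exact test on the read counts, with Benjamini-Hochberg adjustment over all 2238764 CpGs. Calls needed an adjusted p under 0.05 and at least 25 points of difference. The test compares libraries, not conditions. In line 1, 112 members were higher than in parental cells (0.685%, against 0.599% of all CpGs) and 667 lower (4.08%, against 4.46%). In line 2, 33 were higher (0.202%, against 0.0831%) and 118 lower (0.721%, against 0.713%). The lines also differed from each other, with 32 members higher in line 1 than in line 2 (0.196%, against 0.184%) and 156 lower (0.953%, against 1.07%).

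In both lines, 32 members rose (0.196%, against 0.0581% of all CpGs) and 101 fell (0.617%, against 0.600%). The share that fell was close to that over all CpGs, and the share that rose was larger, though these CpGs lay close together in few places and shared reads. Both comparisons use the same parental library. The telomeric flank had 0 rises and 33 falls in both lines (1.62% of its members). Class I had 16 rises (0.239% of its members) and 28 falls (0.418%), class III 3 (0.0722%) and 18 (0.433%), and class II 13 (0.373%) and 22 (0.632%).

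The rises in both lines fell into 12 clusters when called CpGs of one direction less than 1 kb apart were joined, while the falls fell into 71, of which 50 were single CpGs. Of the 32 rising CpGs, 10 belonged to a cluster in TUBB, 5 to a cluster in TAP1 and 3 to a cluster in TNXB. The 101 falling CpGs reached at most 4 in a cluster. A CpG is said to lie in a gene where it falls within the length that RefSeq gives to the gene, laid out from its placed start. Exons and introns were not placed.

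The longest cluster of rises lay in TUBB, which encodes a beta tubulin used by every cell. Its 10 called CpGs (chr6:30689791-30690439), past the second RefSeq start, averaged 5.83% in parental cells, 57.0% in line 1 and 39.5% in line 2. Over all 21 members in the stretch the levels were 12.3%, 60.4% and 40.1%. By the smaller of the line differences, the class I CpG with the largest rise, at chr6:30690377-30690377, was methylated in 16 of 105 parental reads, or 15.2% (95% exact interval 8.97 to 23.6).
Line 1 had 95 of 104 reads methylated there (91.3%, 84.2 to 96.0). Line 2 had 64 of 118 (54.2%, 44.8 to 63.4). The Fisher exact test gave adjusted p = 1.36e-27 for line 1 and 1.70e-06 for line 2 against parental, and 5.16e-07 between the lines. The intervals of the 3 libraries did not overlap.

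The promoters of TUBB did not share in this change. At its first start the level over 25 CpGs was 0.535%, 0.525% and 0.455% in parental cells, line 1 and line 2, and at its second start, over 25 CpGs, no library was above 0.622%. The 1 kb window past the second start (chr6:30690001-30691000, 21 CpGs) stood at 19.9%, 59.6% and 39.9%, with a knockout mean of 49.8% ± 13.9 (SD, n = 2). In that window 14 CpGs were called higher in line 1 and 6 in line 2, and 5 were higher in line 1 than in line 2.

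TAP1 held the window that rose by 25 points in both lines. This window (chr6:32818001-32819000, 9 CpGs), in the body of the gene about 3 kb past its start, stood at 35.1% in parental cells, 81.1% in line 1 and 61.1% in line 2, a knockout mean of 71.1% ± 14.2 (SD, n = 2). The 5 CpGs called in both lines (chr6:32818051-32818276) averaged 40.1%, 86.9% and 74.6%, with adjusted p between 2.97e-16 and 0.00127 for line 1 and between 2.06e-08 and 4.22e-04 for line 2 by the Fisher exact test. A pair of CpGs further along the gene (chr6:32814974-32815031) averaged 13.6%, 74.8% and 45.0%.

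The TAP1 promoter printed above stayed low, at 4.34%, 12.1% and 3.88% over 22 CpGs, and none of them was called. Its depth was a median of 20 reads in parental cells, and a difference of this size is under the 25 points that a call needs. The neighbouring PSMB9, which starts close by on the other strand and encodes an immunoproteasome subunit, had a promoter level of 0.242%, 0.137% and 0.177% over 26 CpGs. A window in the body of PSMB9 (chr6:32825001-32826000, 9 CpGs) went the other way, at 61.1%, 43.3% and 36.9%. It held the falling class II CpG with the largest smaller line difference (chr6:32825057-32825057), with 16 of 29 reads methylated in parental cells (55.2%), 0 of 15 in line 1 (0%, upper limit 21.8%) and 0 of 13 in line 2 (0%, upper limit 24.7%). The adjusted p of the Fisher exact test was 0.00540 for line 1 and 0.0440 for line 2.

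**Figure D4:**
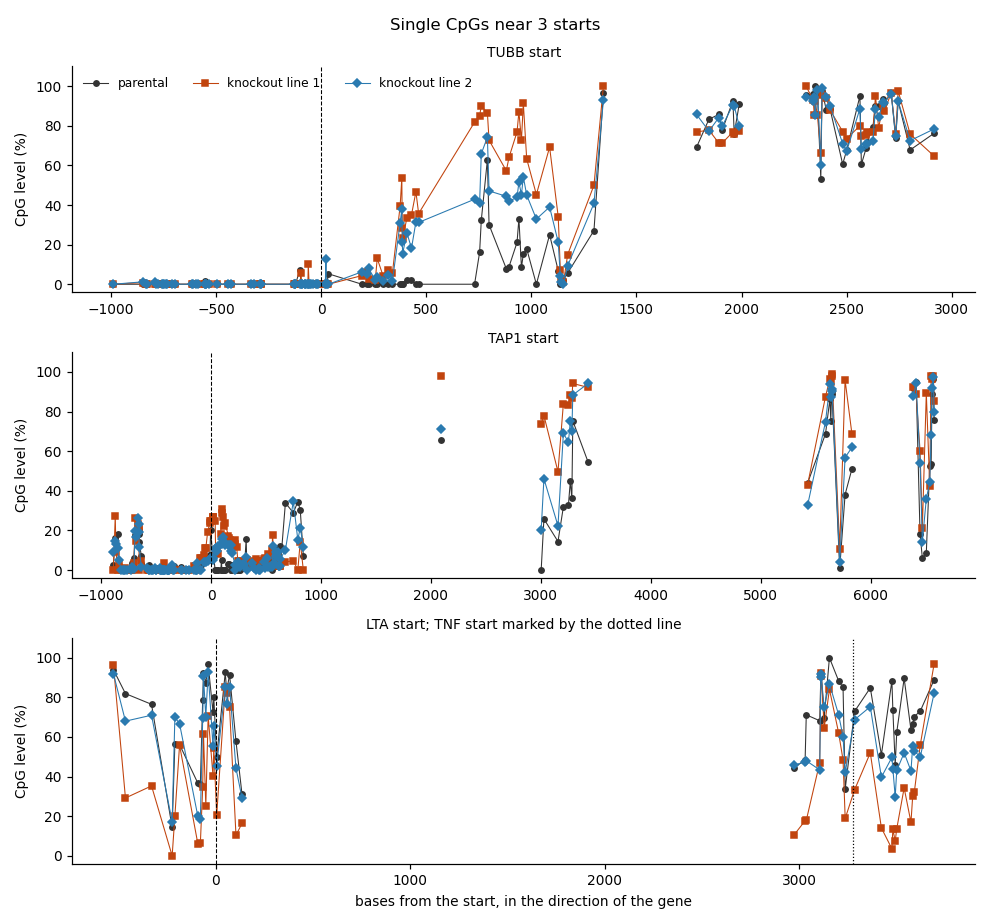
Methylation level in percent of single CpGs near the second TUBB start, the TAP1 start and the LTA start, by distance in bases along the gene, in the 3 libraries. Dashed lines mark these starts and the dotted line the TNF start, and points within 300 bases are joined. Both lines lie above parental between about 0.4 and 1.1 kb past the TUBB start and near 3 kb past the TAP1 start, and line 1 lies below parental around the LTA and TNF starts with line 2 mostly between them.

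Further rises in class I lay in MICB, which encodes a stress-induced ligand of the NKG2D receptor. Its window chr6:31474001-31475000 (12 CpGs) stood at 78.7%, 93.0% and 91.7%, so both lines were above parental and 1.32 points apart. Called pairs of CpGs at chr6:31468926-31468958 and chr6:31478134-31478167 averaged 38.6%, 81.7% and 67.8%, and 27.5%, 82.2% and 56.2%. The MICB promoter was at 0.754%, 0.395% and 0.347% over 20 CpGs.

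In class II, BTNL2 had the other large rise. The window chr6:32363001-32364000 (17 CpGs) in its body stood at 24.1%, 56.7% and 45.7%, a knockout mean of 51.2% ± 7.80 (SD, n = 2). BTNL2 encodes a butyrophilin-like molecule that restrains T cells. Ranked by the smaller of the line differences, the largest rise at a single CpG in class II was at chr6:32256344-32256344, outside any placed gene and 64500 bases before the start of NOTCH4, a Notch receptor. There 0 of 61 parental reads were methylated (0%, upper limit 5.87%), against 46 of 64 reads (71.9%, 59.2 to 82.4) of line 1 and 39 of 90 reads (43.3%, 32.9 to 54.2) of line 2. The adjusted p of the Fisher exact test was 1.12e-16 and 7.03e-08.

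In class III, rises were few. The cluster of 3 CpGs in TNXB, the tenascin X gene, averaged 24.0%, 61.0% and 60.4% (chr6:32063950-32063963). One of them, chr6:32063961-32063961, had 29 of 83, 89 of 98 and 120 of 145 reads methylated, or 34.9%, 90.8% and 82.8%, with adjusted p = 5.94e-13 and 2.31e-09 by the Fisher exact test, and the difference between the lines did not pass that test (adjusted p = 0.803, unadjusted p = 0.0905). By the smaller of the line differences, the largest rises of class III windows were in ABHD16A, a lipid hydrolase gene, at 50.9%, 68.4% and 58.6% (chr6:31668001-31669000) and at 94.3%, 99.4% and 99.5% (chr6:31659001-31660000). In the telomeric flank, by the same ranking, they were at 13.6%, 16.6% and 19.7% (chr6:28557001-28558000, 43 CpGs), and chr6:28687001-28688000 rose from 0.962% by 4.88 points in line 1 and 9.08 points in line 2.

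Falls in class III gathered at the cytokine genes LTA and TNF, which encode lymphotoxin alpha and tumour necrosis factor, in line 1. The TNF window (chr6:31543001-31544000, 24 CpGs) stood at 71.8% in parental cells, 39.9% in line 1 and 57.8% in line 2. The 2 LTA windows stood at 59.1%, 31.6% and 54.7% (chr6:31539001-31540000) and at 75.9%, 49.3% and 67.3% (chr6:31540001-31541000). In the TNF window 16 CpGs were called lower in line 1, 3 in line 2, and 8 were lower in line 1 than in line 2. In the LTA windows 4 and 6 CpGs were called in line 1 and 0 in line 2. Most of the 162 class III CpGs called lower in line 1 lay outside the TNF and LTA windows.

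Just past the TNF start, 3 CpGs fell in both lines (chr6:31543541-31543604), from a mean of 83.9% in parental cells to 17.1% in line 1 and 48.5% in line 2. All 5 members in that stretch averaged 72.0%, 14.5% and 43.7%. The adjusted p of the Fisher exact test lay between 3.15e-46 and 1.37e-10 for line 1 and between 1.29e-08 and 7.29e-04 for line 2. The promoter CpGs printed above were at 74.5%, 52.4% and 65.9%, with 5 of 11 called lower in line 1 and 0 in line 2. The 2 CpGs farthest upstream in that sequence, 247 and 241 bases before the start, went from 48.3% and 71.2% in parental cells to 17.7% and 17.9% in line 1 and to 47.4% and 48.0% in line 2. Those at 166 and 164 bases before the start stayed between 90.5% and 92.3% in all 3 libraries.

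The complement gene C2 had the class III window with the largest fall. It stood at 51.9%, 12.2% and 32.7% (chr6:31895001-31896000, 11 CpGs), 26724 bases past the placed start of the gene. In it 8 CpGs were called lower in line 1 and 1 in line 2. The promoter window at the placed start was nearly fully methylated in all 3 libraries, at 91.5%, 90.2% and 90.7% over 9 CpGs. No other C2 start was placed, and whether the falling window lies at one was not examined.

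TNXB and its surroundings stood apart within class III. In the 100 kb chr6:31980000-32080000, 27 of 31 windows were between 20% and 80% in parental cells, while the other full 100 kb stretches of class III held 3 to 8 such windows among 19 to 38. The median window there was at 46.1%, 29.3% and 39.6%, and 30 of 31 windows were lower in line 1 than in parental cells and 23 of 31 in line 2. This stretch was singled out after its values had been seen. It overlaps a segment that the human genome carries in near-identical copies (the C4, CYP21A2 and TNXB genes with their pseudogenes), so reads of that segment may be shared between copies. The falling class III CpG with the largest smaller line difference lay in these 100 kb (chr6:32032629-32032629). Whether it lies in the copied segment was not examined. This CpG had 18 of 18 parental reads methylated, 1 of 14 reads (7.14%, 0.181 to 33.9) of line 1 and 3 of 16 reads (18.8%, 4.05 to 45.6) of line 2. The Fisher exact test gave adjusted p = 4.12e-06 and 3.58e-04. Its window (chr6:32032001-32033000, 15 CpGs) stood at 64.9%, 45.4% and 45.9%.

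In class II, beside the PSMB9 window given above, falls lay at COL11A2, a collagen gene. The window around one of its starts (chr6:33158001-33159000, 8 CpGs) stood at 58.2%, 29.7% and 36.1%, and a window inside the gene (chr6:33156001-33157000, 8 CpGs) at 49.5%, 21.2% and 32.6%. At another COL11A2 start, 16 CpGs stayed at 88.9%, 87.4% and 86.3%. A start with 6 CpGs compared stood at 35.1%, 14.2% and 27.9%, with 3 called lower in line 1 and 1 in line 2. A start with 3 CpGs compared stood at 89.0%, 79.7% and 97.6%.

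The telomeric flank had the largest share of falls among the blocks, with 163 CpGs called lower in line 1, or 8.03% of its members, against 4.46% of all CpGs and 5.76% in the rest of chromosome 6. The shares were 3.30% in class I, 3.90% in class III and 3.48% in class II, and the difference between blocks was not tested. At the overlapping starts of the genes OR2W1-AS1 and LOC105375002, a window of 27 CpGs (chr6:29003001-29004000) stood at 88.7%, 63.4% and 75.7%, with 11 CpGs called lower in line 1 and 4 in line 2. There 4 CpGs fell in both lines, the longest cluster of falls, from a mean of 85.8% to 29.8% and 53.6% (chr6:29003691-29003929). Over all 15 members in that stretch the levels were 89.7%, 57.5% and 74.6%. Windows far from any placed start fell likewise, such as chr6:28655001-28656000 at 66.0%, 34.5% and 45.9% and chr6:29407001-29408000 at 51.1%, 19.9% and 33.4%. None of the 13 listed olfactory receptor genes had a placed start, so such windows may still lie in or near an unplaced gene. The window chr6:29556001-29557000 stood at 82.5%, 62.7% and 62.2%, with the lines 0.468 points apart. At chr6:29407980-29407980, 34 of 41 parental reads were methylated (82.9%), 10 of 34 in line 1 (29.4%) and 13 of 35 in line 2 (37.1%), with adjusted p = 2.33e-04 and 0.00988 by the Fisher exact test.
The window chr6:29477001-29478000 was the one that differed by 25 points between the lines, at 69.7% in parental cells, 32.2% in line 1 and 65.9% in line 2.

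In class I, 1 window fell by 25 points in line 1, chr6:30805001-30806000, at 88.3%, 53.8% and 74.9%. Ranked by the smaller of the line differences, the windows with the largest falls were chr6:29981001-29982000, at 79.8%, 59.0% and 63.1%, and chr6:29589001-29590000, at 34.5%, 15.3% and 20.8%, and neither lay in a placed gene. The single CpG chr6:29981570-29981570 had 39 of 43 reads methylated in parental cells (90.7%), 13 of 29 in line 1 (44.8%) and 12 of 27 in line 2 (44.4%), with adjusted p = 0.00125 and 0.00945 by the Fisher exact test.

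Promoters as a whole were low and moved little. The 300-base windows of 167 RefSeq starts were placed, for 134 genes, and 129 genes had at least 3 members in theirs. Of these 129, 96 were under 20% in parental cells, 22 between 20% and 80% and 11 above 80%. Promoter CpGs averaged 13.0%, 11.2% and 12.2% over 2101 members, and the other 14260 members 40.5%, 37.3% and 38.9%. In both lines, 0 promoter CpGs rose and 10 fell (0.476%), against 32 (0.224%) and 91 (0.638%) of the others. In line 1, whether or not line 2 was called too, 51 promoter CpGs were lower (2.43%), against 616 of the others (4.32%). Gene lists (10) with 90 members were followed, of which 44 could be analysed, and their median differences from parental were -0.299 points in line 1 and -0.0782 in line 2, against -0.150 and -0.0759 over all 129 genes.

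Of 8 class I genes, 6 were analysed. The classical genes were free of methylation at their promoters, HLA-B at 0.950%, 2.13% and 1.76% over 22 CpGs and HLA-C at 0.747%, 1.19% and 0.203% over 19. MICA, a stress-induced ligand like MICB, was at 0.238%, 0.190% and 0.642% over 21 CpGs. HLA-F stood at 18.5%, 8.32% and 11.4% over 16 CpGs, with 0 CpGs called. HLA-G was the only one above 20%, at 54.1%, 46.8% and 53.5% over 17 CpGs. Reads of HLA genes can map to more than one family member, and their alleles differ from the reference, so these levels carry that uncertainty.

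The CpGs of the HLA-G promoter did not share one level. The lowest in parental cells was at 22.2%, 13 bases past the start. The CpGs at 47, 44 and 39 bases before the start were at 83.0%, 83.0% and 97.8% in parental cells and at 81.6%, 82.6% and 96.4% in line 2. In line 1 they were at 46.4%, 88.9% and 90.4%, and the first of them was the CpG of this promoter called lower there (adjusted p = 0.00527 by the Fisher exact test).

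Of 13 class II genes, 5 were analysed. HLA-DQB1 stood at 8.29%, 4.73% and 10.8% over 5 CpGs and HLA-DPA1 at 13.6%, 7.57% and 11.9% over 27. HLA-DMA and HLA-DMB, whose products load peptides onto class II molecules, were at 22.3%, 16.1% and 25.8% and at 3.04%, 4.28% and 3.99%, each over 3 CpGs. HLA-DOA, which tempers that loading, was at 3.79%, 0% and 2.85% over 4 CpGs. None of these promoters had a CpG called in either line. The others, among them HLA-DRA, HLA-DRB1 and HLA-DQA1, were not analysed here.

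Of 5 antigen processing genes, 4 were analysed and all were under 20%. Beside TAP1 and PSMB9, PSMB8 was at 1.06%, 0.163% and 1.98% at one start and at 38.1%, 31.2% and 36.8% at another, and TAPBP, which bridges TAP1 and class I molecules, at 0%, 0.107% and 0.0855%. TAP2 was not analysed here.

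By the median, cytokine genes were the list whose promoters fell most in line 1 (-24.4 points). Lists with promoters near 0 in parental cells, such as housekeeping genes (median 0.214%), had no room to fall. The difference between lists was not tested. LTA stood at 65.4% in parental cells, 37.0% in line 1 and 59.0% in line 2 over 13 CpGs, and was the 1 gene of the 44 whose promoter was lower by 25 points or more. In it 8 of 13 CpGs were called lower in line 1 and 0 in line 2. LST1, a leukocyte gene next to TNF, was at 43.6%, 19.2% and 37.6% over 4 CpGs, with 2 called in line 1 and 0 in line 2. At another LTA start (4 CpGs) the levels were 50.9%, 27.8% and 56.2%, so line 2 was not lower there. By the start with the most CpGs, all 3 analysed members of this list of 7, TNF included, were lower in both lines. Over all 129 genes, 91 were lower than parental in line 1 and 75 in line 2, by any amount.

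The remaining lists showed smaller differences. The 10 analysed housekeeping promoters of 14 lay at or under 0.648% in parental cells, from RING1, a Polycomb ring finger gene, at 0% to BAG6, a chaperone gene, at 0.648%. The heat shock promoters, of which HSPA1A and HSPA1B belong to near-identical genes, were intermediate, at 24.8%, 23.8% and 24.7% for HSPA1B, 47.2%, 36.9% and 44.6% for HSPA1A and 64.9%, 58.5% and 64.0% for HSPA1L, and the windows of HSPA1A and HSPA1L overlap. In the complement list, CYP21A2 was at 86.1%, 74.2% and 86.2%. Of 7 TRIM genes 4 were analysed, from TRIM26 at 0.171%, 0.207% and 0.272% to TRIM40 at 60.7%, 48.5% and 56.1%. In the developmental list 7 of 14 were analysed, each by its start with the most CpGs. They ran from the receptor kinase gene DDR1 at 0%, 0.455% and 0.812% to COL11A2. Other placed DDR1 starts, over fewer CpGs, stood in parental cells at 3.45%, 54.3%, 67.4% and 88.2%. None of the 13 olfactory receptor genes was analysed here.

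**Figure D5:**
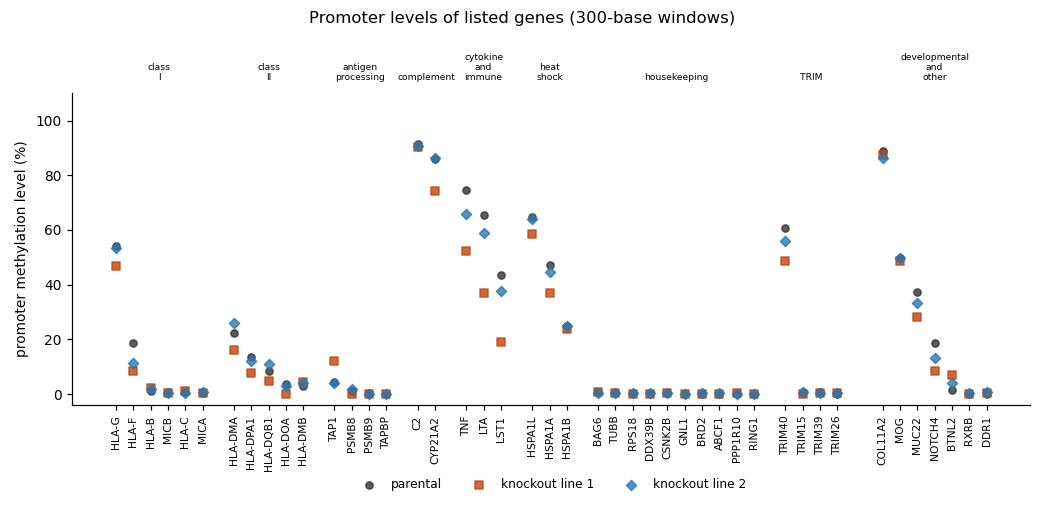
Promoter methylation level in percent for the 44 analysed genes of the lists, in parental cells (circles), line 1 (squares) and line 2 (diamonds), each the mean over at least 3 CpGs of a 300-base window. Housekeeping promoters sit near 0 in all libraries, LTA falls from 65.4% to 37.0% in line 1, and the 3 symbols coincide for most genes.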

How the data were processed

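Genomic DNA of 3 Hep3B libraries was enriched by methyl capture (EPIC probe set) and bisulfite sequenced. The authors deposited, for each cytosine of a CpG and strand, counts of reads (total, in CpG context, methylated) with no normalization, and a methylation level as a fraction, which equalled methylated over context reads at every cytosine. The submitters' processing notes name GRCh37 and hg19. The aligner, caller and handling of PCR duplicates are not given in the sources used here. Libraries held 104702738 (parental), 96987706 (line 1) and 133170621 (line 2) CpG reads.

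Reads of both strands were summed, each CpG being given by the position of its G, and a CpG was kept where no library had fewer than 10 reads. Fisher exact tests with Benjamini-Hochberg adjustment ran over all 2238764 CpGs, called at an adjusted p under 0.05 and 25 points. Window and promoter levels were unweighted means over at least 5 and 3 CpGs. Intervals are exact (Clopper-Pearson, 95%) and cover counting error only. Promoters were placed on the file positions by CpG spacing: over the whole chromosome with at least 6 matched CpGs, a score (matched over all CpGs in either set) of at least 0.8 and a margin of 0.25 over the next place, then between placed neighbours with 3, 0.6 and 0.2. All 167 placements gave one common distance to the RefSeq starts, which was checked afterwards. The CpG test, checked on simulated data, used numba 0.67.0 and scipy 1.17.1 under Python 3.11.15, with pandas 2.3.3, numpy 2.4.6 and matplotlib 3.10.9 for the rest.

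Windows named are, per block, the 2 largest rises and 2 largest falls by the smaller of the line differences, CpGs the largest called in both lines per direction, and genes those of the lists (class I, class II and antigen processing in full, otherwise 25-point changes and the extremes). Other windows moved by 25 points in line 1, clusters of called CpGs and stretches named beside them were chosen after their values were seen. The members, lists and rules were chosen with earlier results of these data known. Alternatives covered the depth minimum, thresholds, thinning, weighting by reads, window size and offset, promoter width and leaving out each line.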

Additional observations from a re-analysis of the deposited data

Results flagged for a closer look

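The knockout lines, which share a genotype in the labels, differed from each other by the Fisher exact test. In the interval, 32 CpGs were higher in line 1 than in line 2 and 156 were lower, with Benjamini-Hochberg adjustment and a 25-point minimum. These are 0.196% and 0.953% of the members, against 0.184% and 1.07% of all CpGs, so both shares were near the background. The higher CpGs made up 0.603% of class II and 0.134% of class I, and the lower ones 0.488% and 0.792%. These differences between blocks were not tested. Each line is 1 library, so line, culture and library cannot be told apart.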

How the results depend on the processing

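Alternatives gave 128 values over 26 results. Of these, 95 kept within 1 SD or 1.5 times the reported value, 33 moved and 0 reversed direction. At 50 points instead of 25, the CpG counts were 0 higher and 3 lower in both lines, 30 and 113 in line 1, 0 and 4 in line 2, and 4 and 6 between the lines, and no window was left: 0 in each comparison. Thinning each CpG to its smallest depth gave 64 lower CpGs in both lines, 73 in line 2 and 102 between the lines, and an adjusted p under 0.01 gave 97 lower between the lines. Leaving out either knockout line gave 33 to 112 higher and 118 to 667 lower CpGs, and 1 to 3 higher and 0 to 15 lower windows, since the counts then rest on the other line alone; the 667, the 112, the 3 and the 15 are those without line 2. At 10 CpGs per window, 0 windows rose in both lines, 0 rose in line 2, 4 fell in line 1 and 0 were lower in line 1 than in line 2. Windows shifted by 500 bases gave 2 rises in both lines, 6 in line 1 and 2 in line 2, and 1 higher and 0 lower between the lines, and a minimum of 20 reads gave 0 lower between the lines. Promoters lower by 25 points in line 1 numbered 2 at a minimum of 5 reads and 2 with 1 kb centred on the promoter. Beyond the construction of these settings, the cause was not tested. No paired analysis was possible, because there is 1 parental library and the label numbers name the knockout lines.

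Depth limits single CpGs: at 13 to 29 reads, as at chr6:32825057-32825057, intervals are wide. The parental state rests on 1 library, and duplicates among reads were not removable from these counts.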

Other observations

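The antisense gene PSMB8-AS1, which starts beside PSMB8 and is on none of the lists, had a promoter level of 74.4% in parental cells, 61.3% in line 1 and 68.7% in line 2 over 22 CpGs. In it 4 CpGs were lower in line 1 and 2 in line 2 by the Fisher exact test. HCG4B, a noncoding class I gene, stood at 77.4%, 64.5% and 68.5% over 20 CpGs, and 3 of its CpGs fell in both lines. Both genes were picked after their values had been seen. PRRT1 and LY6G5B, in class III, stayed high, at 93.7%, 94.3% and 96.0% and at 97.1%, 94.7% and 94.0%.

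CpGs between 40% and 60% made up 6.02% of the members in parental cells, 5.84% in line 1 and 6.19% in line 2. In the telomeric flank these shares were 6.35%, 7.68% and 8.17%.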
